A study of Mus musculus with 194 samples.

Results

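The dorsal striatum (DS), the part of the striatum that takes part in action selection and habit, was profiled 4 hr after the first cocaine dose a mouse had received. The libraries were chosen by their labels alone: 4 acute DS mice at 4 hr and 4 cocaine-naïve DS mice, all sequenced in 1 run, which are 8 of the 194 libraries of the series. All were male wild-type C57BL/6OLAHSD mice that had arrived at 6 to 7 weeks of age. The 4 hr mice had received a single intraperitoneal dose of cocaine at 20 mg/kg after 3 days of habituation to saline injections, whereas the naïve mice (0 hr) received no cocaine and no injection on the day of collection. Cocaine, the injection itself and the time since handling therefore cannot be told apart in this comparison. The 8 DS mice collected 1 hr and 2 hr after acute cocaine entered the same fit, and mice given 5 daily doses (repeated cocaine) or a dose after 21 days of abstinence from repeated cocaine (challenge) are described where the same genes were compared in them. Transcripts were counted from their 3′ ends with unique molecular identifiers, and values are CPM, read counts per gene scaled to a common library total with TMM factors. RNA came from bulk tissue, so fewer cells of a type and less RNA per cell cannot be told apart.

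A dose of cocaine raises striatal dopamine and switches on a wave of genes that need no new protein. Within the first hour these are mostly transcription factors such as Fos, Junb and Egr1, together with feedback inhibitors such as Dusp1. Their proteins bind the control regions of a second set, the late effector genes, which encode scaffolds, secreted factors, channels and signaling proteins that alter the synapse. A transcript of the first wave can end below its starting level once its own repressors have accumulated, which is called an undershoot here.

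The naïve libraries held 1441580 to 3671400 counts and the 4 hr libraries 3632700 to 4963050, so depth differed with the group. Naïve mouse 2 was the shallowest. Naïve mouse 1 stood apart from the other libraries, at -33.5 on the first principal component of the 16 acute DS libraries, the other 15 of which lay between -3.77 and 8.34. Naïve mouse 2 stood apart on the second component, at -26.8, where the other 15 lay between -0.71 and 4.39. Transcripts of Fmod (fibromodulin, a matrix protein of the meninges) were at 67.4 CPM in naïve mouse 1 and at most 4.89 CPM in the other 3 naïve mice. Those of 1500015O10Rik, a secreted peptide of the choroid plexus and ependyma, were at 307 CPM in naïve mouse 1 and at most 6.29 CPM in the others. Markers of ependymal cells summed to 373 CPM in naïve mouse 1, against 50.7 to 156 CPM in the other naïve mice, and markers of spiny projection neurons, the principal cells of the striatum, to 12280 CPM against 14219 to 14895 CPM. The 4 hr against naïve comparison and the differences between experiences were also computed without naïve mouse 1. Of the 16 spiny projection neuron markers, 15 were tested and were well above 0 in every library (Drd1 at 248 to 343 CPM and Drd2 at 316 to 415 CPM over the 8 libraries), while markers of cortical excitatory neurons summed to 46.1 to 108 CPM, most in naïve mouse 2.

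At 4 hr, 35 of 12186 tested genes were higher than in naïve mice (0.287%) and 3 were lower (0.0246%), at a Benjamini-Hochberg adjusted p under 0.05 by edgeR's quasi-likelihood test and a fold change over 1.2. The 35 genes that rose did so by 1.23- to 4.82-fold, with a median of 1.47-fold. They comprised the transcription factors Egr3 and Hivep2, the late effectors Homer1, Inhba and Rgs20, the synaptic scaffold Dlg2, 6 genes of endothelial cells and single genes such as Ina, Ryr3 and Dagla. The 4 hr and naïve mice did not overlap in any of the 35, which over all tested genes was the case for 3.97% upwards and 2.72% downwards. The 35 were chosen on these same libraries, which in part fixes this separation. The median log2 fold change (log2FC) over all tested genes was -0.0021.

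How firmly each of the 35 was called depended on the mice. When each of the 8 mice was left out in turn, Egr3, Ina, Car12, Syne1 and Ryr3 passed in all 8 fits, 16 genes passed in at least 4, and 19 passed in 3 or fewer. Without naïve mouse 1, 16 genes were higher (0.13%) and 0 lower of 12299 tested, with 14 of the 35 among them. The direction of change was kept in all 35. Without naïve mouse 2, 18 of the 35 passed and all 35 were higher, and Homer1 (adjusted p = 0.0825) and Rgs20 (adjusted p = 0.0611) were among those that no longer passed. DESeq2, which called 1.57% of genes higher and 0.41% lower, called all 27 of the 35 to which it gave an adjusted p. The genes that passed without naïve mouse 1 but not with all mice were Ntrk2, the BDNF receptor, and Ubash3b. Both are named because they are the only ones. Ntrk2 was at 549, 387, 356 and 342 CPM in naïve mice 1 to 4 and at 449, 462, 504 and 511 CPM in the 4 hr mice, so that only the naïve mouse 1 value lay above the 4 hr values. After thinning each library to the size of the smallest, 7 genes were higher and 0 lower, 6 of the 35 among them.

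Egr3, a zinc finger transcription factor of the EGR family that responds to synaptic activity, had the lowest adjusted p of all (GRCm38 chr14:70077203-70082614). Egr3 was at 247, 228, 236 and 198 CPM in the naïve mice and at 389, 430, 464 and 483 CPM in the 4 hr mice. The groups were far apart, and Egr3 rose by a log2FC of 0.96 ± 0.12 (SE, adjusted p = 0.000332). It was already high at 1 hr (358 to 411 CPM). The other EGR genes were near the naïve level at 4 hr. The log2FC at 4 hr was -0.02 for Egr1, 0.13 for Egr2 and 0.08 for Egr4, with adjusted p values of 0.966, 0.903 and 0.899, although all 3 had been higher at 1 hr by 1.45, 3.36 and 2.46 on the log2 scale. Without naïve mouse 1 the log2FC of Egr3 was 1.00 (adjusted p = 2.59e-05). Hivep2, another zinc finger transcription factor that was singled out after its values were seen, was at 246 to 270 CPM in naïve mice and at 329 to 368 CPM at 4 hr, with a log2FC of 0.44 ± 0.08 (adjusted p = 0.0084).

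Inhba encodes the βA subunit of activin, a secreted factor of the TGF-β family that acts at synapses (chr13:16011851-16031621). It was at 24.4, 21.7, 26.9 and 22.3 CPM in naïve mice and at 37.2, 42.8, 52.2 and 51.2 CPM in the 4 hr mice, without overlap. Inhba rose by a log2FC of 0.94 ± 0.18 (adjusted p = 0.0148, and 0.0196 without naïve mouse 1). At 1 hr it was at 24.6 to 30.2 CPM, close to the naïve range, and at 2 hr it was at 28.1, 62.4, 56.9 and 47.9 CPM, with 2 hr mouse 1 well under the others. Acvr1, a type I receptor of the activin and BMP family, was at 15.6, 23.8, 22.2 and 19.1 CPM in naïve mice and at 30.6, 28.6, 31.1 and 36.5 CPM at 4 hr. Its log2FC was 0.69 ± 0.15 (adjusted p = 0.0489), and without naïve mouse 1, where it was lowest, 0.58 with an adjusted p of 0.165. Acvr1 was the only 1 of 22 tested genes of a list of activin, BMP and growth factor receptors and their targets that passed, and the list median was close to 0 without naïve mouse 1 (0.01).

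Homer1 encodes a scaffold that ties group I metabotropic glutamate receptors to other postsynaptic proteins, and counts per gene do not separate its short, activity-induced form from the long forms. Naïve mice had 346, 326, 397 and 365 CPM and 4 hr mice 503, 499, 588 and 609 CPM, a log2FC of 0.61 ± 0.12 (adjusted p = 0.0216). All 4 hr mice lay above all naïve mice, as did all 1 hr mice (467 to 553 CPM), so Homer1 rose early and was still high at 4 hr. Rgs20, a regulator that speeds the shutting off of G proteins, had another time course. It was at 86.9 to 98.1 CPM in naïve mice, at 78.4 to 96.0 CPM at 1 hr, and at 120, 117, 133 and 133 CPM in the 4 hr mice. Rgs20 passed at 4 hr against naïve mice (log2FC 0.47 ± 0.09, adjusted p = 0.0216) and against 1 hr (0.56, adjusted p = 0.000466).

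Late activity-dependent effectors as a list held 31 tested genes, of which 3 rose (Homer1, Inhba and Rgs20) and 0 fell by edgeR, with 13 above and 4 below at an unadjusted p under 0.05 (6.68% of all tested genes were above and 7.46% below), and DESeq2 called 4 up and 0 down. Their median log2FC was 0.14 at 1 hr, 0.19 at 2 hr and 0.12 at 4 hr, so the list as a whole was not highest at 4 hr. Among the members that did not pass were Vgf, a neuropeptide precursor (437 to 569 CPM in naïve mice, 586 to 807 CPM at 4 hr, log2FC 0.43, adjusted p = 0.107), the prohormone convertase Pcsk1 (0.62, adjusted p = 0.229) and the AMPA receptor-clustering pentraxin Nptx2. Nptx2 was at 26.8, 24.5, 37.8 and 22.6 CPM in naïve mice and at 40.6, 38.2, 50.6 and 41.3 CPM at 4 hr (log2FC 0.60 ± 0.18, adjusted p = 0.139). None of these 3 overlapped between the groups. Bdnf was too low to be tested, at 0.198 to 1.29 CPM in the 4 hr mice, and naïve mouse 1 had 6.78 CPM against at most 1.4 CPM in the other naïve mice.

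**Figure D1:**
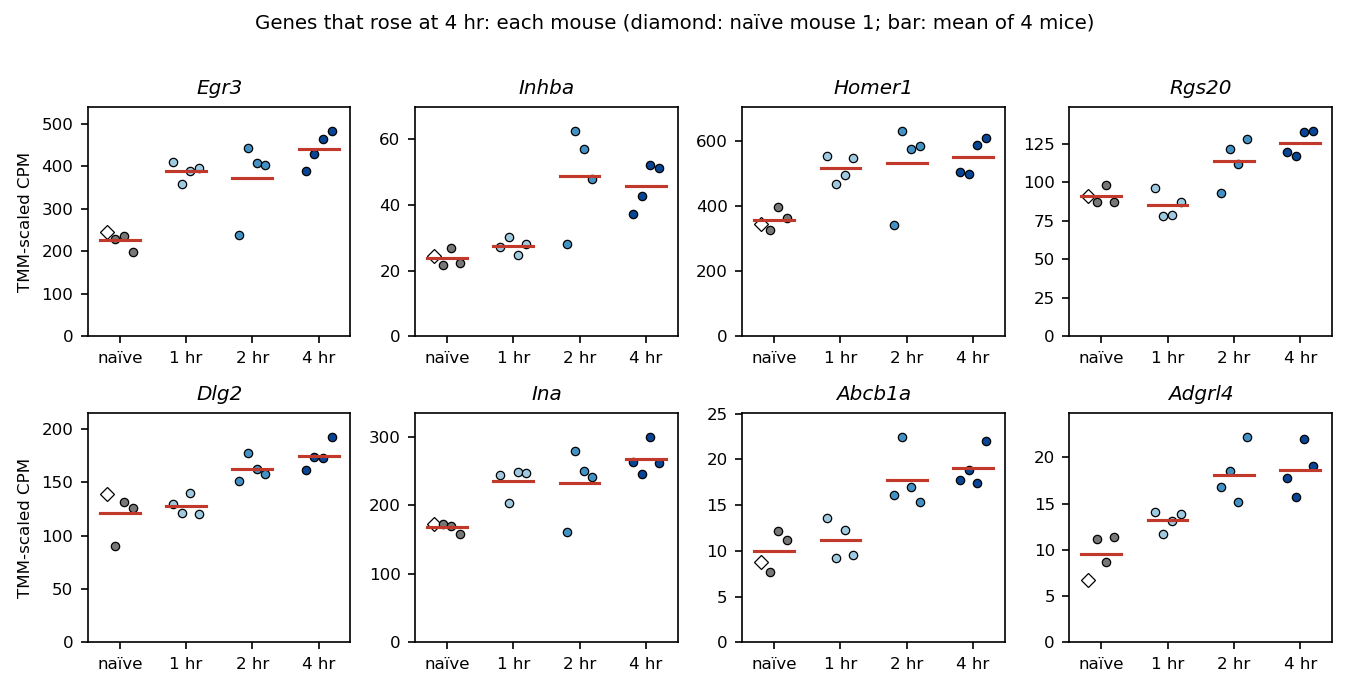
TMM-scaled CPM of 8 genes that rose at 4 hr, for each mouse (points) and as the mean of 4 mice (bar) in naïve mice and 1, 2 and 4 hr after acute cocaine; the diamond is naïve mouse 1. Egr3, Homer1 and Ina were high from 1 hr, while Rgs20, Dlg2 and Abcb1a were near the naïve level at 1 hr and Dlg2 and Abcb1a were higher from 2 hr, and 1 mouse at 2 hr (mouse 1) lay near the naïve level in Egr3, Inhba, Homer1, Ina and Rgs20.

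The 35 genes were chosen for being high at 4 hr, so their time course is a description that the choice in part fixes. The mean was highest at 4 hr in 30 of them, at 2 hr in Adgrf5, Inhba and Dagla, and at 1 hr in Map3k10 and Spryd3. Against naïve mice, 6 of the 35 passed at 1 hr (0.624% of all tested genes were higher then and 0.041% lower) and 14 at 2 hr (0.566%), and the median log2FC of the 35 was 0.17 at 1 hr, 0.38 at 2 hr and 0.56 at 4 hr. These 3 comparisons share the naïve mice. At 4 hr 18 of the 35 were higher than at 1 hr (0.583% of all tested genes were higher and 0.656% lower), in the same 4 hr libraries by which the 35 were chosen. Between 2 hr and 4 hr 0 of the 35 passed by edgeR and 0 by DESeq2, with 6 higher at an unadjusted p under 0.05, and 32 had a higher mean at 4 hr, with a median log2FC of 0.12. Over all tested genes 2 were higher at 4 hr than at 2 hr (0.0164%) and 8 were lower (0.0656%). The 8 were Arl5b, Dnajb5, Egr1, Egr4, Fosl2, Irs2, Nr4a3 and Peli1, all of which were above the naïve level at 1 hr, and the 2 were Cacnb2, a calcium channel subunit, and Pdzd2; these 10 are named because they are all there were. 2 hr mouse 1 had lower rapid-response transcripts than the other 2 hr mice (Arc at 65.2 CPM against 95.0 to 223 CPM, Fosb at 22.3 CPM against 63.9 to 76.4 CPM). Leaving it out of the shared fit gave 62 genes higher at 4 hr than in naïve mice and 6 lower, with all 35 among the 62.

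**Figure D2:**
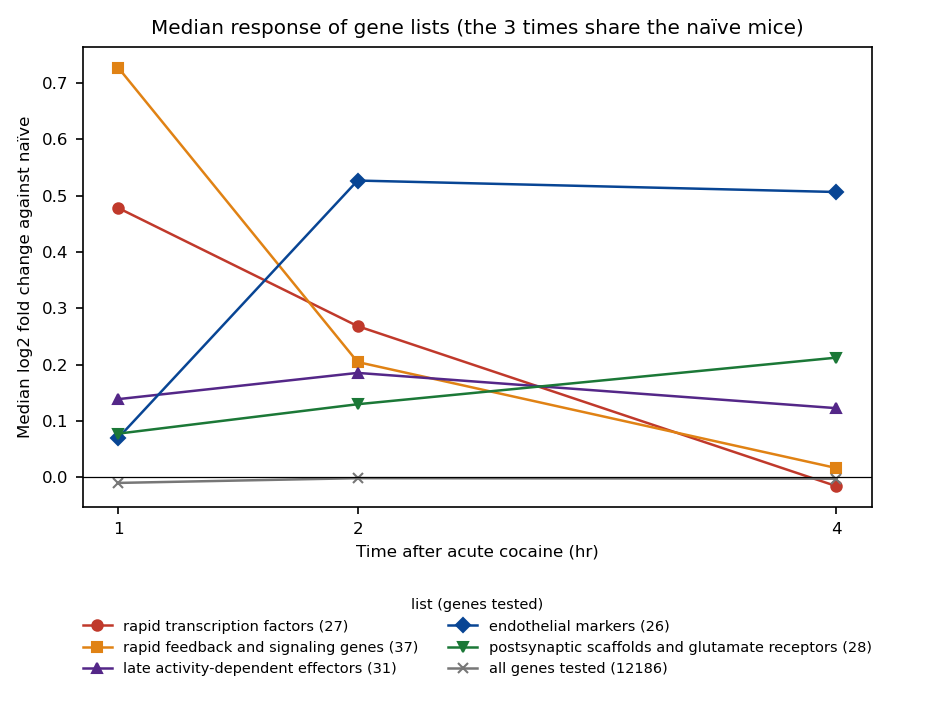
Median log2 fold change against naïve mice of 5 gene lists and of all tested genes at 1, 2 and 4 hr after acute cocaine; the number of genes tested is in the key, and the naïve mice are the same at each time. The rapid lists peaked at 1 hr (0.48 and 0.73) and were near 0 at 4 hr (-0.02 and 0.02), the endothelial list was at 0.07 at 1 hr and at 0.53 and 0.51 later, the postsynaptic list was highest at 4 hr (0.21), and the late effector list was at 0.14, 0.19 and 0.12.

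Of 28 tested genes of postsynaptic scaffolds and glutamate receptors, 24 had a higher mean at 4 hr, 1 passed (Dlg2), and 13 were higher and 0 lower at an unadjusted p under 0.05, where 6.68% of all tested genes were higher and 7.46% lower. The median log2FC was 0.21, and 0.14 without naïve mouse 1, which had the lowest sum of these transcripts (6349 CPM, against 6934 to 7224 CPM in the other naïve mice and 7637 to 8026 CPM at 4 hr). Spiny projection neuron markers moved with this list. Of these 15, 14 had a higher mean at 4 hr, 0 passed by edgeR or DESeq2, and 4 were higher and 0 lower at an unadjusted p under 0.05, with a median of 0.12, and of 0.05 without naïve mouse 1. Their sum at 4 hr was 14506 to 15590 CPM, and their part in the result was not tested. Dlg2, a membrane-associated scaffold of the postsynaptic density, was at 139, 90.1, 132 and 125 CPM in naïve mice and at 161, 174, 173 and 192 CPM at 4 hr. It rose by a log2FC of 0.50 ± 0.09 (adjusted p = 0.0148), did not overlap, and passed without naïve mouse 1 as well (0.56, adjusted p = 0.00659). Its log2FC at 1 hr was 0.05. Members with the lowest adjusted p among those that did not pass were the striatum-enriched phosphatase Ptpn5 (582 to 710 CPM in naïve mice, 789 to 885 CPM at 4 hr, log2FC 0.34, adjusted p = 0.063) and the neurotrophin receptor Ntrk3 (235 to 272 and 290 to 330 CPM, log2FC 0.30, adjusted p = 0.071). DESeq2 called 4 members up and 0 down.

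G protein and cyclic nucleotide signaling genes, which carry dopamine receptor signals in spiny neurons, gave 0 called genes of 29 by edgeR and 0 by DESeq2. In this list 10 genes were higher and 0 lower at an unadjusted p under 0.05 (6.68% and 7.46% of all tested genes), and 23 had a higher mean at 4 hr, with a median log2FC of 0.15, and of 0.09 without naïve mouse 1. Naïve mouse 1 was again the lowest, at a sum of 17288 CPM against 20122 to 20594 CPM in the other naïve mice and 20321 to 21642 CPM at 4 hr, as it was in the spiny neuron markers. Of 28 potassium channel genes, 0 passed by either tool and 6 were higher and 0 lower at an unadjusted p under 0.05, with a median log2FC of 0.06, and of 0.0026 without naïve mouse 1.

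A group of 6 endothelial genes rose together. Of 26 tested endothelial markers, Ly6c1, Ly6a, Abcb1a, Adgrf5, Adgrl4 and Ocln passed upwards (0.287% of all tested genes did) and 0 downwards, 15 were higher and 0 lower at an unadjusted p under 0.05 (6.68% and 7.46% of all), and 25 of 26 had a higher mean. The median log2FC was 0.51. Adgrl4, an adhesion receptor of the vessel wall (chr3:151437887-151545086), was at 6.78, 11.2, 8.75 and 11.4 CPM in naïve mice and at 17.8, 15.7, 22 and 19.0 CPM at 4 hr, a log2FC of 0.98 ± 0.18 (adjusted p = 0.0148). Abcb1a encodes P-glycoprotein, the drug efflux pump of the blood-brain barrier (chr5:8660077-8748575). It was at 8.81, 7.68, 12.2 and 11.2 CPM in naïve mice and at 17.8, 18.8, 17.4 and 22 CPM at 4 hr, a log2FC of 0.89 ± 0.19 (adjusted p = 0.0323). In both genes all 4 hr mice lay above all naïve mice.

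Adgrf5, another adhesion receptor, was at 7.45, 7.68, 13.4 and 11.7 CPM in naïve mice and at 24.7, 15.0, 20.9 and 29.0 CPM at 4 hr (log2FC 1.11 ± 0.22, adjusted p = 0.0216). Ly6a and Ly6c1 encode membrane-anchored surface proteins of a family with near-identical copies, between which reads can be split, so their values are uncertain. Ly6a was at 45.4, 47.5, 59.7 and 56.1 CPM in naïve mice and at 94.2, 67.8, 74.2 and 95.6 CPM at 4 hr, with a log2FC of 0.66 ± 0.11 (adjusted p = 0.00634), and Ly6c1 had a log2FC of 0.53 ± 0.11 (adjusted p = 0.0307). Ocln, which encodes the tight junction protein occludin, had the largest log2FC of the 35 (2.27 ± 0.48) and the lowest level. It was at 0.678, 0, 1.87 and 0.545 CPM in naïve mice and at 4.45, 4.13, 6.43 and 2.78 CPM at 4 hr, was singled out after its values were seen, and was below the level that the rule for naming genes asks for.

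At 1 hr the endothelial list median was 0.07 and 0 of the 26 passed, and at 2 hr 7 passed (0.566% of all tested genes). Of the 6 genes, Ly6c1, Ly6a, Abcb1a and Adgrf5 had a log2FC of -0.11 to 0.27 at 1 hr, whereas Adgrl4 (0.49, adjusted p = 0.393) and Ocln (1.26, adjusted p = 0.46) were further from naïve mice without passing, and Adgrl4, at 11.8 to 14.1 CPM, was above all naïve mice by then. At 4 hr against 1 hr, 7 were higher and 0 lower (0.583% and 0.656% of all). Defining markers that did not pass included Flt1 (14.6 to 22.1 CPM in naïve mice, 28.2 to 34.8 CPM at 4 hr, adjusted p = 0.0577), Pecam1 (log2FC 0.87, adjusted p = 0.154) and Cldn5, which overlapped (12.9 to 32.5 and 20 to 40.3 CPM). The sum over the list was 1185 to 1315 CPM in naïve mice, 1228 to 1242 CPM at 1 hr, 1314 to 1521 CPM at 2 hr and 1376 to 1492 CPM at 4 hr. Without naïve mouse 1 only Ly6a passed, 25 of 26 were still higher, and the median was 0.39. Thinning left 1 member, and DESeq2 called 2 but gave no adjusted p to most of these low genes. Whether the number of vessel cells in the dissected tissue differed between the groups was not tested. Markers of mural cells, which wrap the vessels, had 0 of 12 called by edgeR and 0 by DESeq2, with a median of 0.17. Of the 12, 3 were higher and 2 lower at an unadjusted p under 0.05 (6.68% and 7.46% of all tested genes). The mural median was 0.32 without naïve mouse 1, and 10 of 12 were then higher. The mural sum was 315 CPM in naïve mouse 1, 206 to 225 CPM in the other naïve mice and 234 to 273 CPM at 4 hr, so that the 4 hr mice lay above all naïve mice but this one.

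**Figure D3:**
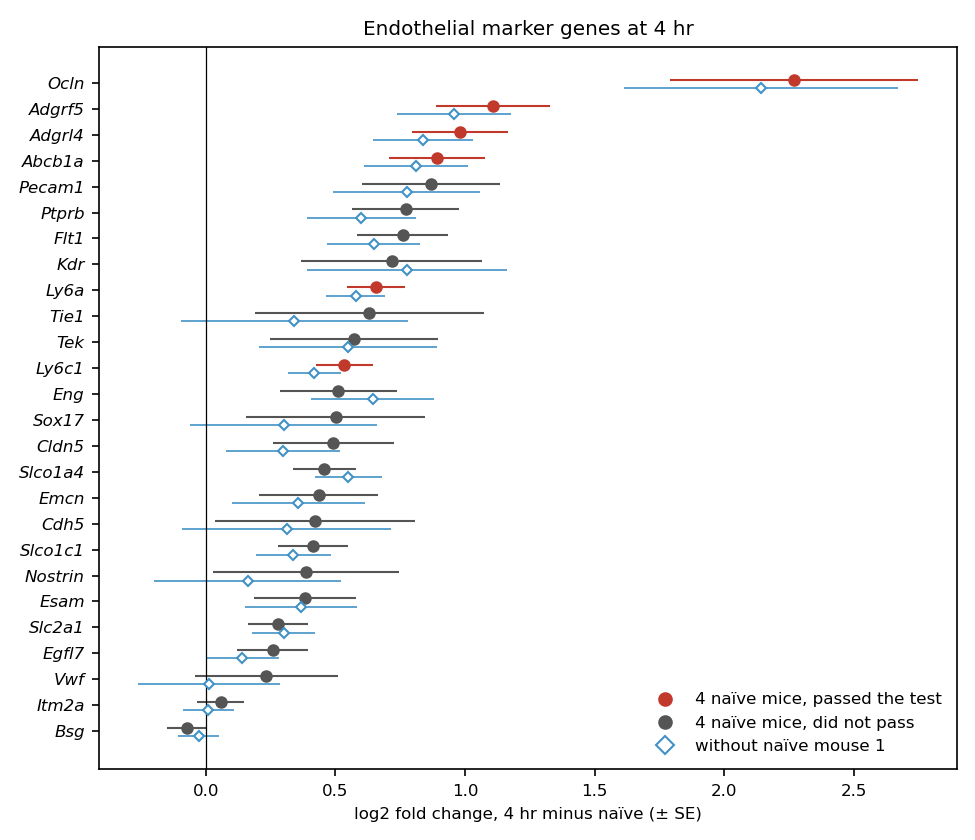
Log2 fold change (± SE) of the 26 tested endothelial markers, 4 hr against naïve mice, with all 4 naïve mice (circles; red passed the test) and without naïve mouse 1 (open diamonds). All but Bsg lie above 0 with all mice, and the 6 that passed range from 0.53 (Ly6c1) to 2.27 (Ocln).

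The rest of the 35 belonged to none of the 24 gene lists, and apart from Ina, Mcu and Nbn they were singled out after their values were seen. Ina encodes α-internexin, a neuronal intermediate filament, and overlaps Nt5c2 on the other strand (chr19:47014698-47025327). It was at 172, 172, 169 and 158 CPM in naïve mice and at 263, 245, 299 and 262 CPM at 4 hr, a log2FC of 0.67 ± 0.11 (adjusted p = 0.00634). Syne1, a giant nuclear envelope protein, was at 118, 159, 156 and 159 CPM and at 208, 207, 202 and 250 CPM (log2FC 0.56 ± 0.09, adjusted p = 0.00634), and it was at the naïve level at 1 hr (log2FC -0.01). Srgap1, a GTPase-activating protein, Plxna2, a semaphorin receptor, and Wipf3, a WASP-interacting protein, rose by log2FC of 0.49, 0.49 and 0.31. Srgap1 still passed without naïve mouse 1 (adjusted p = 0.0272), but Plxna2 (log2FC 0.45, adjusted p = 0.131) and Wipf3 (log2FC 0.28, adjusted p = 0.141) did not.

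Ryr3, a calcium release channel of the endoplasmic reticulum, was at 102, 99.2, 119 and 112 CPM in naïve mice and at 154, 160, 135 and 152 CPM at 4 hr, with a log2FC of 0.47 ± 0.07 (adjusted p = 0.00634). Mcu, the pore of the mitochondrial calcium uniporter (chr10:59446984-59616692), was at 19.3, 21, 22.2 and 28.3 CPM and at 30.6, 33.3, 39.1 and 46.6 CPM. Both were without overlap, but Mcu only just passed (log2FC 0.71 ± 0.16, adjusted p = 0.0499, and 0.157 without naïve mouse 1). Car12, a membrane-bound carbonic anhydrase, was at 50.3 to 67.5 CPM in naïve mice and at 83.1 to 101 CPM at 4 hr (log2FC 0.64, adjusted p = 0.00634). The palmitoyltransferase Zdhhc14 was at 112 to 120 CPM in naïve mice, at 86.8 to 102 CPM at 1 hr (log2FC -0.32, adjusted p = 0.207) and at 151 to 191 CPM at 4 hr, a log2FC of 0.56 ± 0.10 (adjusted p = 0.00634). Against 1 hr its log2FC was 0.88 (adjusted p = 8.98e-07).

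Of the kinases, Mapk4, an atypical MAP kinase, was at 44.0 to 56.9 CPM in naïve mice and 68.4 to 88.1 CPM at 4 hr (log2FC 0.60), and Map3k10, a mixed-lineage kinase of the JNK pathway, was at 48.8, 59.4, 64.0 and 76.6 CPM and at 97.3, 112, 84.1 and 93.6 CPM (log2FC 0.62, adjusted p = 0.016). Map3k10 was as high at 1 hr as at 4 hr (log2FC 0.64 at 1 hr). Dagla, which makes the endocannabinoid that signals back across striatal synapses, was at 133 to 148 CPM in naïve mice and at 175 to 200 CPM at 4 hr (log2FC 0.35 ± 0.07, adjusted p = 0.0323). Nbn, a DNA break repair protein (log2FC 0.68, adjusted p = 0.0489), passed in only 1 of the 8 fits that left out a mouse. None of these 4 passed without naïve mouse 1, although the log2FC stayed at 0.52 for Mapk4 (adjusted p = 0.0717), 0.51 for Map3k10 (adjusted p = 0.0674), 0.34 for Dagla (adjusted p = 0.0807) and 0.72 for Nbn (adjusted p = 0.0753). The remaining genes that rose were Syt6, a synaptotagmin, Efr3b, Psd3, Lpgat1, Sh2d5, Srrt, Tcaf1, Spryd3 and 6030419C18Rik, with log2FC from 0.30 (Psd3) to 0.56 (6030419C18Rik), of which only Tcaf1 passed without naïve mouse 1. Annotated exons of another gene on the opposite strand overlapped 10 of the 35, and of one on the same strand 2, and such reads cannot be assigned with certainty.

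The start sites of the genes that rose were searched for the letters of 3 short sites. The AP-1 letters were included because Fos and Jun proteins, which bind them, are the textbook link between the first and the second wave. Letters bound by EGR factors were not searched. RefSeq promoter windows (GRCm38.p6, 250 bases before to 50 bases after each start) were found for 24 of the 35 genes. The AP-1 letters TGANTCA (N is any base), the cAMP response element TGACGTCA and the E-box CACGTG, each of which reads the same on both strands so that both were covered, do not overlap each other in the stretches shown here. TGANTCA was in windows of 3 of the 24 (12.5%), those of Mcu, Map3k10 and Syt6, against 8.97% of all 27025 genes with a window and 5.91% of the tested genes. TGACGTCA was in 0 of 24 (2.03% of all and 3.68% of the tested genes) and CACGTG in 1 of 24 (4.17%, against 8.09% of all and 11.9% of the tested genes). TGACGTCA was in 5 of 33 rapid feedback and signaling genes (15.2%), Dusp1 among them, and in 2 of 25 rapid transcription factors (8%). The stretches from Mcu (chr10:59616740-59616799) and Map3k10 (chr7:27674766-27674825), genes of the late set, and from Dusp1 (chr17:26508566-26508641), a gene of the first wave, are shown 5′ to 3′ on the strand of the gene, which is the minus strand in all 3, with these letters in capitals. They start 81, 218 and 143 bases before the start site, and a match is a description of the letters, not a bound site.
Mcu: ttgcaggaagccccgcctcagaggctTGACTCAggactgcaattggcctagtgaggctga
Map3k10: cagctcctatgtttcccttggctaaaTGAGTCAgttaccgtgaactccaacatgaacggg
Dusp1: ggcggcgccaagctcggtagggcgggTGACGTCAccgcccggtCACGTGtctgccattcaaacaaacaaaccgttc

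No rapid-response gene passed the test below the naïve level. Of 64 tested genes on the lists of rapid transcription factors and of rapid feedback and signaling genes, 30 were higher at 1 hr than in naïve mice, with a median log2FC of 1.31. At 4 hr, 28 of these 30 were lower than at 1 hr, and their median against naïve mice was 0.01. Against naïve mice 14 of the 30 had a lower mean at 4 hr, 0 passed downwards by edgeR or DESeq2, 3 were lower at an unadjusted p under 0.05 (Fos, Junb and Dusp1), and in 0 did the 4 hr mice lie wholly below the naïve mice. Over all tested genes 7.46% were lower at that p and 2.72% lay wholly below, so these counts are near the background. Upwards, 1 passed (Egr3), 5 were higher at an unadjusted p under 0.05 (6.68% of all) and 3 did not overlap (3.97% of all). Without naïve mouse 1, 17 of the 30 had a lower mean, 0 passed, and the median was -0.03.

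Fos, the founding immediate-early gene (chr12:85473890-85477273), had the most negative log2FC of these 3. It was at 19.0, 11.9, 4.69 and 5.18 CPM in naïve mice, at 34.5 to 56.4 CPM at 1 hr and at 5.28, 4.13, 4.02 and 2.18 CPM at 4 hr. Naïve mice 1 and 2 were thus far above naïve mice 3 and 4, with which the 4 hr mice overlapped. Naïve mice 1 and 2 also had the highest Slc17a7 of the naïve mice, a marker of cortical excitatory neurons. The part of cortical tissue in the Fos values was not tested. The log2FC of Fos was -1.35 ± 0.38 (adjusted p = 0.107), and without naïve mouse 1, which had the highest Fos, it was -0.73 (adjusted p = 0.491). Junb, a partner of Fos, was at 161, 291, 187 and 174 CPM in naïve mice and at 136, 172, 114 and 128 CPM at 4 hr. Its log2FC was -0.53 ± 0.16 (adjusted p = 0.139), and here naïve mouse 1 was the lowest of its group, so that without it the value was -0.63 (adjusted p = 0.0783).

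Dusp1, a phosphatase that switches off MAP kinases, was at 31.8, 44.0, 32.8 and 27 CPM in naïve mice and at 20.8, 25.3, 27.1 and 17.7 CPM at 4 hr. The groups touched at 27 CPM, and the log2FC was -0.54 ± 0.16 (adjusted p = 0.154), nearly the same without naïve mouse 1 (-0.55, adjusted p = 0.256). Npas4, a neuron-specific activity factor, was at 40.0, 34.2, 9.37 and 14.2 CPM and at 19.7, 13.7, 11.5 and 7.94 CPM, with log2FC of -0.84 (adjusted p = 0.27) and, without naïve mouse 1, -0.37. Among naïve mice, Npas4 was, like Fos, highest in mice 1 and 2. Arc, whose product removes AMPA receptors from synapses, was at 118, 200, 169 and 129 CPM and at 110, 132, 100 and 88.3 CPM (log2FC -0.49 ± 0.24, adjusted p = 0.356). Nr4a1, an orphan nuclear receptor, had a log2FC of -0.23 (adjusted p = 0.728).

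**Figure D4:**
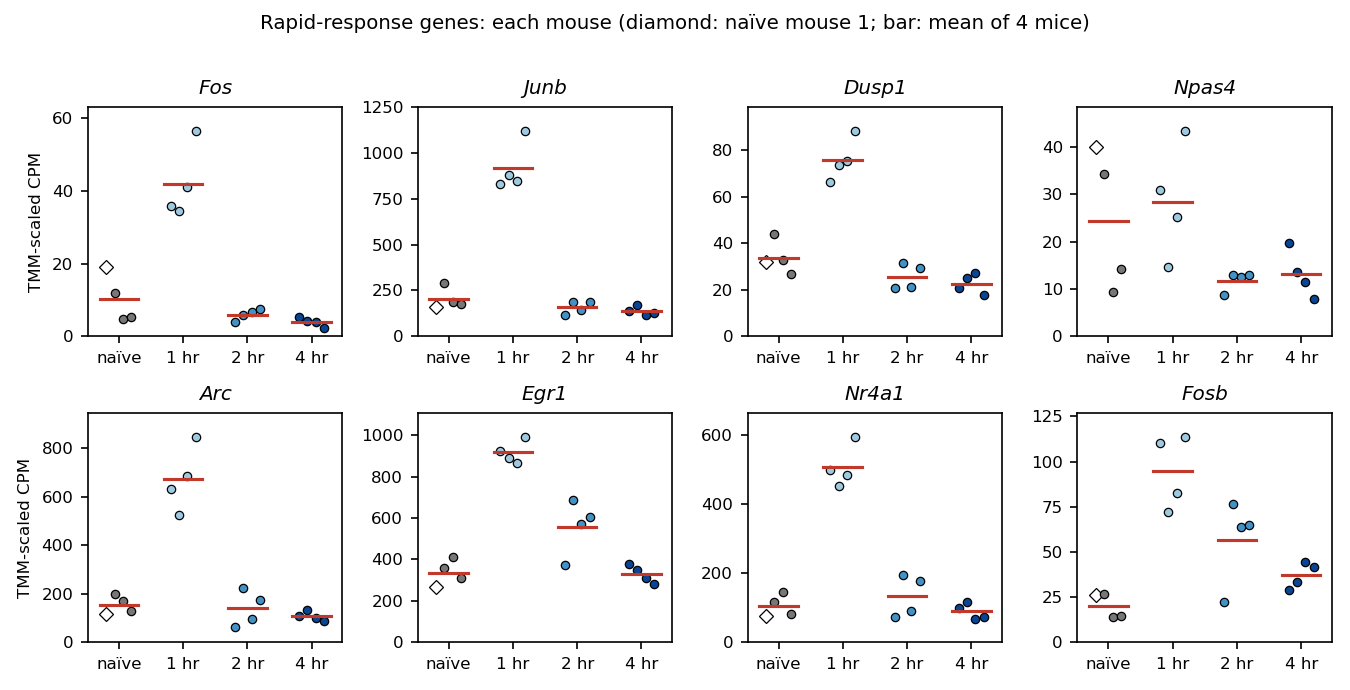
TMM-scaled CPM of 8 rapid-response genes for each mouse (points) and as the mean of 4 mice (bar) in naïve mice and 1, 2 and 4 hr after acute cocaine; the diamond is naïve mouse 1. The mean was highest at 1 hr in all 8, and at 4 hr the points of Fos, Junb, Dusp1, Npas4 and Arc lay at or under the lower part of the naïve range, which they overlapped, while those of Fosb lay above it.

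Fosb and Crem stayed on the other side. Fosb, whose truncated product accumulates with repeated cocaine, was at 26.1, 26.5, 14.1 and 14.4 CPM in naïve mice and at 29.2, 33.3, 44.5 and 41.9 CPM at 4 hr. All 4 hr mice were above all naïve mice, but the log2FC of 0.96 ± 0.28 did not pass (adjusted p = 0.136, and 0.103 without naïve mouse 1). Crem, which encodes repressors of cAMP-responsive genes and was singled out after its values were seen, was at 19.6 to 27.5 and 31.4 to 42.9 CPM (log2FC 0.57, adjusted p = 0.0942).

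The 3 genes that fell were of other kinds. 1500015O10Rik was at 307, 6.29, 5.93 and 0.817 CPM in naïve mice and at 3.61, 3.35, 3.75 and 2.38 CPM at 4 hr, and Igfbp2, which binds insulin-like growth factors, at 252, 24.5, 10.6 and 9.81 CPM and at 12.2, 8.51, 9.64 and 5.95 CPM. In both, naïve mouse 1 alone was high, and log2FC of -4.66 (adjusted p = 0.0323) and -3.09 (adjusted p = 0.0362) became -0.26 (adjusted p = 0.899) and -0.58 (adjusted p = 0.474) without it. Fmod, high in the same mouse, went from -3.25 (adjusted p = 0.0786) to 0.17. Mrpl16, a protein of the mitochondrial ribosome (chr19:11770391-11774960), was not high in that mouse alone. It was at 61.3, 63.6, 55.3 and 58.6 CPM in naïve mice and at 47.0, 44.4, 43.9 and 38.5 CPM at 4 hr, without overlap. Its log2FC was -0.45 ± 0.10 (adjusted p = 0.0323) and, without naïve mouse 1, -0.44 (adjusted p = 0.0919), so that the fold was similar but the test was no longer passed. It passed in 3 of the 8 fits that left out a mouse, and it was at 40.4 to 48.5 CPM at 2 hr already.

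Neuropeptides of the spiny neurons did not pass. Penk, the enkephalin precursor of indirect-pathway neurons, was at 3744, 3748, 4299 and 4282 CPM in naïve mice and at 4577, 4206, 4737 and 4514 CPM at 4 hr (log2FC 0.17, adjusted p = 0.238). Tac1, the substance P precursor of direct-pathway neurons, was at 602, 704, 741 and 711 CPM and at 741, 757, 764 and 885 CPM (log2FC 0.19, adjusted p = 0.256), and the dynorphin precursor Pdyn at 95.9 to 126 and 99.8 to 149 CPM (log2FC 0.14, adjusted p = 0.66). The ranges of Penk and Pdyn overlapped, and those of Tac1 nearly met. Cck, which was singled out after its values were seen, was at 138, 105, 55.9 and 56.9 CPM and at 56.2, 50.6, 38.8 and 38.7 CPM (log2FC -0.92, adjusted p = 0.0585) and was the only neuropeptide that DESeq2 called, downwards. Naïve mice 1 and 2, where Cck was highest, were also the 2 with the highest Slc17a7, a marker of cortical excitatory neurons (27.4 and 53.1 CPM against 18.8 and 20.3 CPM), and the part of cortical tissue in this difference was not tested.

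The same 35 genes were then read in mice with another history of cocaine and their own 0 hr mice. Since the 35 were chosen for being high in the acute mice, larger values there were fixed by the choice. After repeated cocaine, 27 of the 35 had a higher mean at 4 hr than at 0 hr, with a median log2FC of 0.15, and 0 passed by edgeR or DESeq2, as over all genes (0%). At an unadjusted p under 0.05, 7 of the 35 were higher, where 2.44% of all tested genes were higher and 2.21% lower. After challenge 31 of 35 were higher, the median was 0.14, 10 were higher at an unadjusted p under 0.05 (2.63% of all, with 2.17% lower), and 1 passed by edgeR (0.0155% of all) and 4 by DESeq2. The 1 was Inhba, with a log2FC of 0.96 ± 0.17 (adjusted p = 0.00346), as large as after acute cocaine. Egr3 had log2FC of 0.24 and 0.53 after repeated cocaine and challenge, Ina 0.41 and 0.59, Homer1 0.19 and 0.42, and Zdhhc14 0.30 and 0.54. The endothelial genes were lower there, at -0.13 to 0.26 after repeated cocaine and at -0.09 to 0.53 after challenge for the 6 that rose after acute cocaine. The median over the whole endothelial list was 0.11 and 0.14.

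The difference between the responses was tested in 1 model of all 3 experiences. Acvr1 was the only gene that passed between acute and repeated cocaine (0.00774% of 12918 genes upwards and 0% downwards). Its 4 hr response was 0.69 ± 0.15 after acute cocaine and -0.42 ± 0.13 after repeated cocaine, a difference of 1.10 on the log2 scale (adjusted p = 0.00329), and 0.02 after challenge. The difference was 0.98 without naïve mouse 1, in which Acvr1 was lowest, and just missed the threshold (adjusted p = 0.0554), so that 0 genes passed by edgeR, whereas 15 did without naïve mouse 3 and 22 without naïve mouse 4. Between acute cocaine and challenge 0 genes passed by edgeR and 0 by DESeq2, with 3.03% of all genes above and 3.91% below at an unadjusted p under 0.05, and 5 genes passed by edgeR without naïve mouse 3 and 16 without naïve mouse 4. Of the 35, 22 were above at that p, and 25 in the difference between acute and repeated cocaine, where 3.4% of all genes were above and 3.89% below. These counts were fixed in part by the choice of the 35. Acute libraries came from 1 sequencing run and the others from another, and each response was taken within its run.

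**Figure D5:**
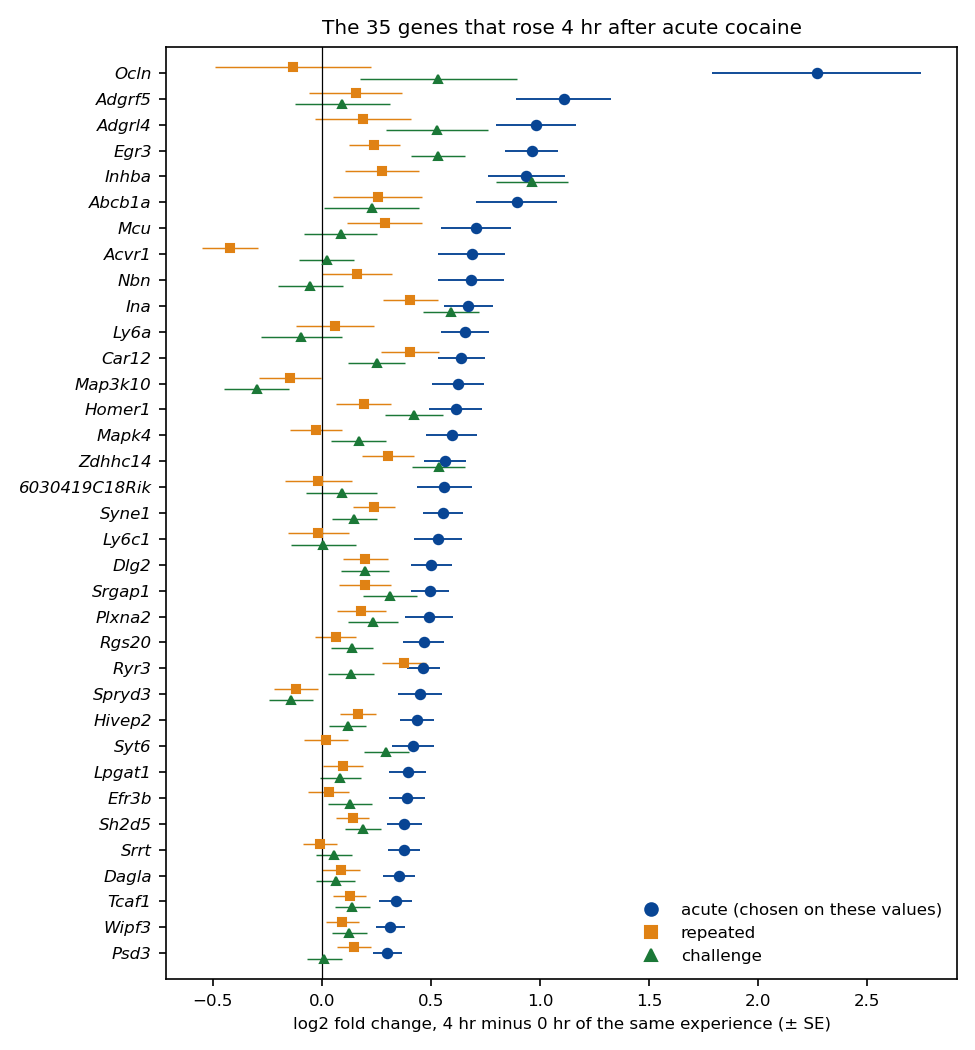
Log2 fold change (± SE) at 4 hr against 0 hr of the same experience for the 35 genes that rose after acute cocaine, after acute (circles), repeated (squares) and challenge (triangles) cocaine. Inhba and Zdhhc14 were about as high after challenge as after acute cocaine, and Acvr1 had a value of -0.42 after repeated cocaine.

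A second library from 2 of the naïve mice and 2 of the 4 hr mice had been sequenced in another run. In it 34 of the 35 had a higher mean at 4 hr, with a median log2FC of 0.35, 16 at an unadjusted p under 0.05 and 0 passing by edgeR. These are the same mice, so the second run bears on sequencing and not on the spread between animals. The exception was Nbn, at -0.64.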

How the data were processed

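RNA from the dissected DS of single mice was sequenced from its 3′ ends. The authors deposited counts, whole numbers of reads per gene without normalization for library size, in 1 table of 19363 genes and 194 libraries, 197 of which genes had no count. Per the methods of the study, polyA tails were trimmed and PCR copies collapsed by unique molecular identifier. STAR was the aligner, GRCm38 the genome and HTSeq the counter, and the submitters' processing notes name the tools without a version. The methods also state that shallow samples were removed and very deep ones down-sampled, and whether the deposited counts are those before or after this step was not tested. Collapsing by identifier limits PCR copies, and a 3′ method gives no isoforms. Groups and replicate numbers came from the sample labels, and no column of other samples was present.

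The 16 acute DS libraries of 1 run (0, 1, 2 and 4 hr, 4 mice each) entered 1 model with a mean per time, using edgeR 4.0.16 in R 4.3.3 with TMM factors, its filter on low counts by group (filterByExpr) and quasi-likelihood F tests. Genes passed at a Benjamini-Hochberg adjusted p under 0.05 and a fold change over 1.2. Repeated and challenge mice were added in 1 model with a mean per experience and time. The animal labels of the repeated mice carry 2 different "exp" tags, both present at 0 and at 4 hr, for which the model had no term. Overlap was judged on CPM. DESeq2 1.42.0, other scaling and filters, thinning, a replicate block, the second run and leaving out each mouse were alternatives, of which leaving out 1 hr and 2 hr mice and the list counts without naïve mouse 1 were chosen after seeing the data. The test was tried on simulated counts.

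The genes compared and the 24 lists (496 entries, 495 in the table) were chosen with earlier results of these data known. Genes were named by a rule: the 10 largest changes in each direction among those that passed with a mean of at least 5 CPM, up to 4 members of each list that passed, genes that passed an interaction, and 18 genes set beforehand. Positions are those of GENCODE M21 and promoters those of RefSeq. Plots were drawn in Python 3.11.15 with matplotlib 3.10.9.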

Additional observations from a re-analysis of the deposited data

Results flagged for a closer look

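Single samples that lay far from the rest of their group, by Dixon's criterion at 95%, were found in 6 of 116 groups of 4 mice that were tested, and chance alone flags about 1 in 20. Fmod and 1500015O10Rik were looked at because they are high in naïve mouse 1, so theirs are descriptions and the 6 cannot be set against chance. In naïve mice, 1500015O10Rik was at 307 CPM in mouse 1 against at most 6.29 CPM, Igfbp2 at 252 CPM in mouse 1 against at most 24.5 CPM, and Fmod at 67.4 CPM in mouse 1 against at most 4.89 CPM. The summed CPM of G protein and cyclic nucleotide signaling genes was lowest in naïve mouse 1, at 17288 against 20122 in the next mouse. The summed CPM of heat shock chaperones was 4905 in 1 naïve mouse against 5161 in the next. At 4 hr, Tac1 was at 885 CPM in mouse 4 against 764 CPM in the next mouse. Naïve mouse 1 also had the highest sum of ependymal markers, a list that holds none of these genes (373 CPM against 50.7 to 156 CPM in the other naïve mice), and their part in these 4 values was not tested.

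Between experiences, the 4 hr response of Acvr1 differed by 1.10 on the log2 scale between acute and repeated cocaine (adjusted p = 0.00329 by edgeR's interaction test). All 4 hr acute mice were above all naïve mice, and the difference was the only one of 12918 that passed. The difference was 0.98 without naïve mouse 1, in which Acvr1 was lowest (adjusted p = 0.0554), and 0 differences then passed by edgeR. In the second run alone it was 0.68 (adjusted p = 1.00).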

How the results depend on the processing

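The number of genes called depended strongly on the choices. Against the 35 higher and 3 lower genes, DESeq2 gave 69 and 18 (among 4389 genes with an adjusted p; the 27 of the 35 that had one were all called), no filter on low counts 104 and 89, the 8 libraries of 0 and 4 hr alone 12 and 0, both runs summed per mouse 5 and 0, the second run alone 1 and 0, thinning 7 and 0, and a fold over 1.5 left 15 higher. Leaving out 1 mouse gave 6 to 88 higher and 0 to 89 lower. Without 4 hr mouse 4 there were 6 higher, without 4 hr mouse 3 there were 8, without 4 hr mouse 2 there were 19 and 0 lower, without 4 hr mouse 1 there were 21 and 1 lower, without naïve mouse 1 there were 16 and 0 lower, without naïve mouse 2 there were 21 and 4 lower, without naïve mouse 3 there were 37 and 32 lower, without naïve mouse 4 there were 88 and 89 lower, and without 1 hr mouse 3 there were 18 and 0 lower. The cause was not tested. RLE scaling gave 25 and 3 and a stricter filter 27 and 2. Leaving out 1 mouse gave 87 to 149 genes between 4 hr and 1 hr (151 with all), 2 to 17 between 4 hr and 2 hr (10 with all), 0 to 22 for acute against repeated cocaine (0 without naïve mouse 1, against 1 with all) and 0 to 16 for acute cocaine against challenge. The difference between acute and repeated cocaine had 0 genes in the second run alone, and the challenge response had 11 genes by DESeq2 against 2.

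Same-numbered naïve and 4 hr mice did not deviate together (r of -0.106, 0.0338, -0.0058 and 0.0908), and not every mouse correlated best with its own number, so the numbers were not taken as pairs. With the replicate number as a block 42 genes were higher, 32 of the 35 among them, and 5 were lower.

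For named genes, 607 values under alternatives kept direction and side of the threshold, 149 kept the direction and missed the threshold, 11 newly passed and 13 changed sign. Those that changed sign when 1 mouse was left out were Egr1 (-0.13 to 0.093, above 0 without naïve mouse 2 or 3 or 4 hr mouse 4), Egr2 (-0.17 to 0.31, below 0 without naïve mouse 1 or 4 hr mouse 2), Egr4 (-0.012 to 0.15, below 0 without naïve mouse 1), Nr4a1 (-0.38 to 0.0048, above 0 without naïve mouse 3) and Fmod (-3.68 to 0.17, above 0 without naïve mouse 1). In the second run alone Egr1 (0.012), Nr4a1 (0.45), Npas4 (0.74), Nbn (-0.64) and 1500015O10Rik (0.30) did so. Depth limits genes under about 5 CPM, such as Fos and Ocln.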

Other observations

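Several other gene groups had no gene that passed at 4 hr. Glucocorticoid-responsive genes had 0 of 24 called by edgeR or DESeq2, with a median log2FC of 0.02. At an unadjusted p under 0.05, 0 of them were higher and 4 lower, where 6.68% of all tested genes were higher and 7.46% lower. Naïve mouse 1 had the highest sum of these genes (8558 CPM against 4320 to 5318 CPM in the other naïve mice and 4092 to 4941 CPM at 4 hr). Mt2, a metallothionein that these hormones induce, was at 2476, 1000, 814 and 842 CPM in naïve mice and at 843, 929, 794 and 771 CPM at 4 hr. Clock genes had a median of 0.08, endoplasmic reticulum chaperones -0.03 and heat shock chaperones -0.01, each with 0 of 20 called by either tool and at most 2 genes at an unadjusted p under 0.05 in a direction. Of 19 cholesterol synthesis genes, 0 were called by either tool, and Insig1, which holds back this pathway, lay below the naïve mice in every 4 hr mouse (18.0 to 20 and 11.8 to 14.7 CPM, log2FC -0.50, adjusted p = 0.119).

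Markers of other cell types were given the same test. Astrocyte (14 genes tested), oligodendrocyte (16) and microglia (12) markers had median log2FC of -0.02, 0.09 and 0.02, with 0 called by edgeR. DESeq2 called 1 astrocyte gene. The 6 tested markers of cortical excitatory neurons had a median of -0.57, and of -0.43 without naïve mouse 1, with 0 called by either tool. Ependymal markers had a median of -0.90, and of -0.14 without naïve mouse 1, and Gfap, the astrocyte filament protein, was at 87.7, 41.2, 17.5 and 21.5 CPM in naïve mice and at 19.5, 15.7, 19.6 and 13.9 CPM at 4 hr (log2FC -1.28, adjusted p = 0.0929).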
